A study of Mus musculus with 8 samples.

Results

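Chromosome 13 was followed along its length in liver tumors by array comparative genomic hybridization, an assay that mixes tumor DNA and reference DNA, marked with separate dyes, on the same set of probes. Every probe that the array design places on chromosome 13 of the mouse build mm9 was taken, which gave 7590 of the 170305 probes on the array. DNA of 8 liver tumors, each from a different male FAH-/- mouse and labelled with Cy5, was compared with liver DNA pooled from 6 male FAH+/+ littermates and labelled with Cy3. Tyrosine is broken down in the liver, and fumarylacetoacetate hydrolase, the product of Fah, acts last in that pathway. Mice without it survive on NTBC (nitisinone), which inhibits the pathway further upstream. The tumor mice had received NTBC in the drinking water, given at 7.5 mg/L unless stated otherwise, and were put on a reduced dose, 2.5% of normal, which lasted 6 to 12 months. The labels used here give neither the ages of the mice nor a separate treatment for the littermates. The tumors form 1 group, with 1 array per tumor, and their numbers 1 to 8 follow the order in which the samples were deposited. The reference was the same pool on every array, so the spread between FAH+/+ mice is in none of the errors below. Liver outside the tumors of these mice was not analysed here.

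A mouse chromosome has its centromere at one end, so a lost copy of chromosome 13 takes a whole arm with it from end to end. Cells that gain or lose whole chromosomes change the dose of all the genes on them together, and such changes are common in liver tumors. A ratio of tumor to reference DNA mixes the number of copies per cell with the share of cells that carry the change, and the assay does not separate them.

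Values are log2 ratios of tumor over pool. Each array was centred so that the commonest level of its autosomal segments lies at 0, and the loss of 1 of 2 copies in every cell would then give -1. The arrays also share a pattern of ratios from probe to probe, so values are given on 2 scales, with that pattern kept and with it subtracted. The pattern is a median over the same 8 arrays, relative to chromosome medians. Subtracting it also removes changes within a chromosome that most tumors share. The pattern-kept scale was used for the level of the whole chromosome and its tests, and the pattern-subtracted scale for segments and for positions along the chromosome. The probes of chromosome 13 spanned chr13:3004789-120283183, a length of 117 Mb, at a median spacing of 11.1 kb. The widest gap without a probe, of 1262 kb, lay at chr13:65409441-66671027. At least 7587 of the 7590 probes had a value on each array. Spots of chromosome 13 were brighter than their local background by a median factor of 4.27 to 6.35 in the tumor channel and of 4.32 to 11.3 in the pool channel. Precision is limited by having 8 arrays. The noise between neighbouring probes of chromosome 13 was 0.38 to 0.64 with the pattern kept and 0.12 to 0.21 with it subtracted.

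At a call size of 0.2, chromosome 13 was called lost from end to end in tumors 1 and 6, apart from a short region in tumor 6. It was not so called in the other 6 tumors. A loss in a small share of the cells need not reach that size. Its mean log2 ratio was -0.67 in tumor 1, -0.12 in tumor 2, -0.032 in tumor 3, -0.021 in tumor 4, 0.0014 in tumor 5, -0.48 in tumor 6, -0.0011 in tumor 7 and -0.16 in tumor 8. Tumors 1 and 6 lie far below the rest, tumors 2 and 8 lie slightly below 0, and tumors 3, 4, 5 and 7 lie close to it. With the pattern subtracted the means were -0.66, -0.11, -0.020, -0.017, 0.0081, -0.47, -0.0036 and -0.13 for tumors 1 to 8. As a linear ratio of tumor over pool on that scale, the loss came to 0.633 in tumor 1 and 0.722 in tumor 6. Both lie well above the 0.5 that a loss of 1 of 2 copies in every cell would give.

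The levels of single probes followed the means. On the pattern-subtracted scale, 98.8% of the chromosome 13 probes of tumor 1 and 99.5% of those of tumor 6 lay below 0. The share was 79.9% in tumor 2 and 77.3% in tumor 8, between them and the 45.0% to 59.1% of tumors 3, 4, 5 and 7. Probes of 1 array are not replicates of a tumor, so no test was made within a tumor.

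Centring sets how deep each level reads. With the array median in place of the commonest autosomal level at 0, all levels moved up by 0.024 to 0.25, and chromosome 13 then lay at -0.45 in tumor 1 and at -0.22 in tumor 6. With the peak of the density of autosomal probe values at 0, tumor 1 lay at -0.17, and tumor 6 turned to 0.036, so that all tumors but tumor 1 lay above 0. Neither that peak nor the array median need lie at the level of unchanged chromosomes, since probe values with the pattern kept are skewed. In tumor 5 the chromosome 13 probes had a mean of 0.0014 and a median of -0.12 on that scale. The order of the chromosomes within a tumor does not depend on the centring. Chromosome 13 was the third lowest of the 19 autosomes in tumor 1, the fourth lowest in tumors 6 and 8 and the fifth lowest in tumor 2. In tumors 3, 4, 5 and 7 it ranked between 9 and 15 counted from the lowest.

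In tumors 1 and 6 the level was close to those of the most deeply lost autosomes of the same tumor. On the pattern-subtracted scale chromosome 13 of tumor 1 lay at -0.66, beside -0.67 for chromosome 4 and -0.69 for chromosome 12, and chromosome 6 lay higher at -0.27. In tumor 6 it lay at -0.47, beside -0.49 for chromosome 8, -0.46 for chromosome 9, -0.49 for chromosome 12 and -0.49 for chromosome 14, with chromosomes 4 and 2 higher at -0.22 and -0.19. The shallower level of tumor 2, -0.11, was shared by chromosome 3 at -0.12, chromosome 4 at -0.14, chromosome 9 at -0.13 and chromosome 12 at -0.15. In tumor 8 chromosome 13 lay at -0.13, well above chromosome 12 at -0.40, chromosome 14 at -0.28 and chromosome 5 at -0.20. No test stands behind these pairs, since each tumor has 1 array.

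**Figure D1:**
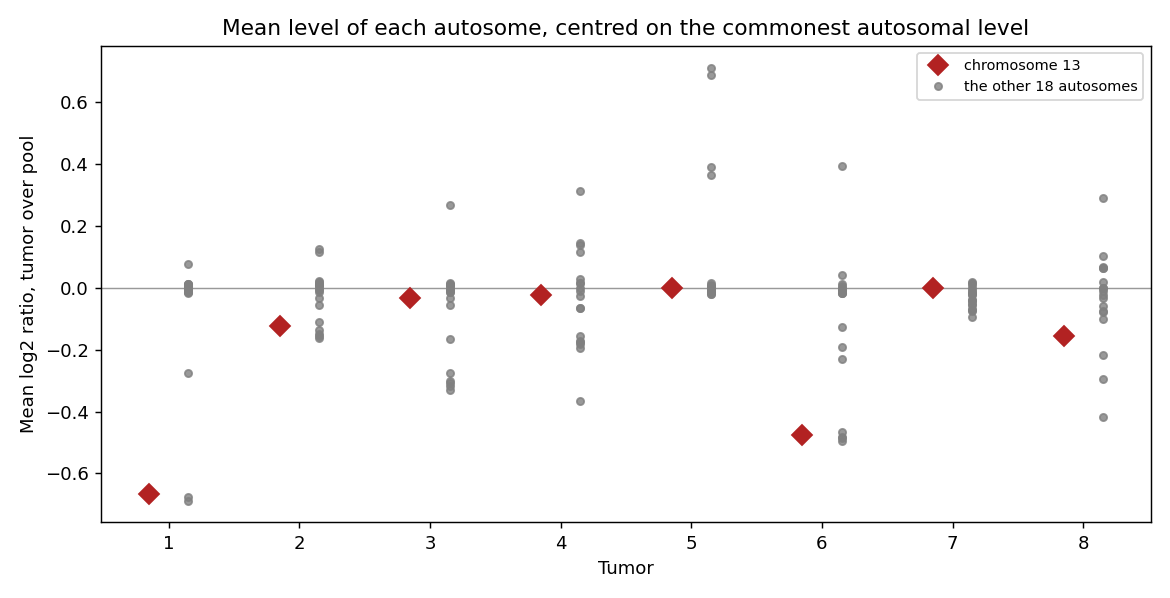
Mean log2 ratio of tumor over pool for chromosome 13 (red diamonds) and for each of the other 18 autosomes (grey points) in tumors 1 to 8, with the pattern kept and the commonest autosomal level at 0. Chromosome 13 lies at -0.67 in tumor 1 and at -0.48 in tumor 6, each beside other lost autosomes, and between -0.16 and 0.0014 in the other 6 tumors.

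Across the 8 tumors the question was whether chromosome 13 differed from the pool as a rule. Its mean was -0.18 ± 0.25 (SD, n = 8) and lay below 0 in 7 of 8 tumors. Flipping the signs of the tumors in every way, an exact permutation test on both sides, gave p = 0.0234, and p = 0.0781 after Benjamini-Hochberg adjustment over the 20 chromosomes tested (19 autosomes and X), which does not pass 0.05. The smallest p that this test allows is 0.00781. The direction depends on the centring: the mean was -0.043 at the array median (adjusted p = 0.666) and 0.20 at the density peak (adjusted p = 0.0493, in the opposite direction), by the same exact permutation test. The skew of the probe values given above limits what the density peak and the array median can show. With the same test 4 of the 20 chromosomes, 20%, passed the adjusted threshold. The SD is larger than the mean because tumors 1 and 6 carry most of it. Without these tumors, an alternative chosen after the values were seen, the mean was -0.056 with an adjusted p of 0.234 by the same exact permutation test.

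Set against the mean of the other autosomes of the same tumor, which makes the choice of 0 irrelevant, chromosome 13 lay at -0.58 in tumor 1, -0.097 in tumor 2, 0.051 in tumor 3, 0.014 in tumor 4, -0.12 in tumor 5, -0.36 in tumor 6, 0.031 in tumor 7 and -0.12 in tumor 8. It was lower than the other autosomes in 5 of 8 tumors and higher in tumors 3, 4 and 7. The mean difference was -0.15 ± 0.22 (SD, n = 8), and the same exact test gave p = 0.0625, adjusted p = 0.25. In this comparison 0 of the 20 chromosomes passed. In tumor 5 the difference comes with gains elsewhere, since its chromosome 13 lay at 0.0014 while 4 of its other autosomes lay above 0.3.

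The arrays came from 2 slides, tumors 5 to 8 on slide 2 and tumors 1 to 4 on slide 1, and 1 tumor with the loss lay on each. Chromosome 13 averaged -0.16 ± 0.22 on slide 2 and -0.21 ± 0.31 on slide 1 (SD, n = 4 each). The difference of 0.053 was smaller than the spread within a slide, with p = 0.686 in a two-sided exact permutation test over 70 splits. Taken alone, slide 2 gave a mean of -0.16 with an adjusted p of 0.625 and slide 1 gave -0.21 with an adjusted p of 0.3125 by the exact sign-flip test, and 4 tumors cannot go below an unadjusted p of 0.125.

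In both tumors the called loss reached from the first probe to the last, apart from a short region in tumor 6. Focal segments inside the loss of tumors 1 and 6 are described with the focal changes. A loss or gain was called where a segment had a mean of at least 0.2 in size over at least 5 probes, with the pattern subtracted. In tumor 1 the called loss ran over chr13:3004789-120283183 at -0.66 and held 99.5% of the chromosome 13 probes, against 17.2% of all probes on the autosomes and X of that tumor. It had no called gain on chromosome 13, against 1.11% over the genome. The probes not called lay in segments of under 5 probes. In tumor 6 the loss held 99.5% of the probes, against 34.8% over the genome, and was broken once. No gain was called there, against 4% over the genome. The loss ran over chr13:3004789-63417960 at -0.46 with 4108 probes and over chr13:63636268-120283183 at -0.49 with 3460 probes.

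Within the loss the steps were small. Segments of at least 100 probes, a size chosen after the values were seen, ranged from -0.72 to -0.57 in tumor 1 and from -0.55 to -0.41 in tumor 6. The largest step between neighbouring long segments was 0.10 in tumor 1, at 11200045, where the level was -0.67 before the step and -0.57 after it. In tumor 6 it was 0.12, at 25342714, with -0.41 before and -0.53 after it. The SD of 1 Mb bins along chromosome 13 was 0.040 in tumor 1 and 0.040 in tumor 6, beside medians of 0.043 and 0.046 over the other autosomes of the same tumors. The lost chromosome varied along its length by about as much as the median autosome of its tumor.

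The probed length was also cut into 3 parts of equal length. The distal part, farthest from the centromere and holding 2484 probes, lay at -0.67 in tumor 1, and the proximal part, holding 2674 probes, at -0.66. In tumor 6 the distal part lay at -0.48 and the proximal part at -0.46. Over the 8 tumors the distal minus proximal difference ran between -0.022 in tumor 5 and 0.042 in tumor 3. On average it came to -0.00049 ± 0.025 (SD, n = 8) and was negative in 5 tumors, and the exact test gave p = 0.914, adjusted p = 0.992. For this difference 0 of the 20 chromosomes passed the adjusted threshold. These values have the pattern subtracted, which is a median over the same 8 tumors. A difference that most tumors share is removed with it, so this test cannot show one.

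**Figure D2:**
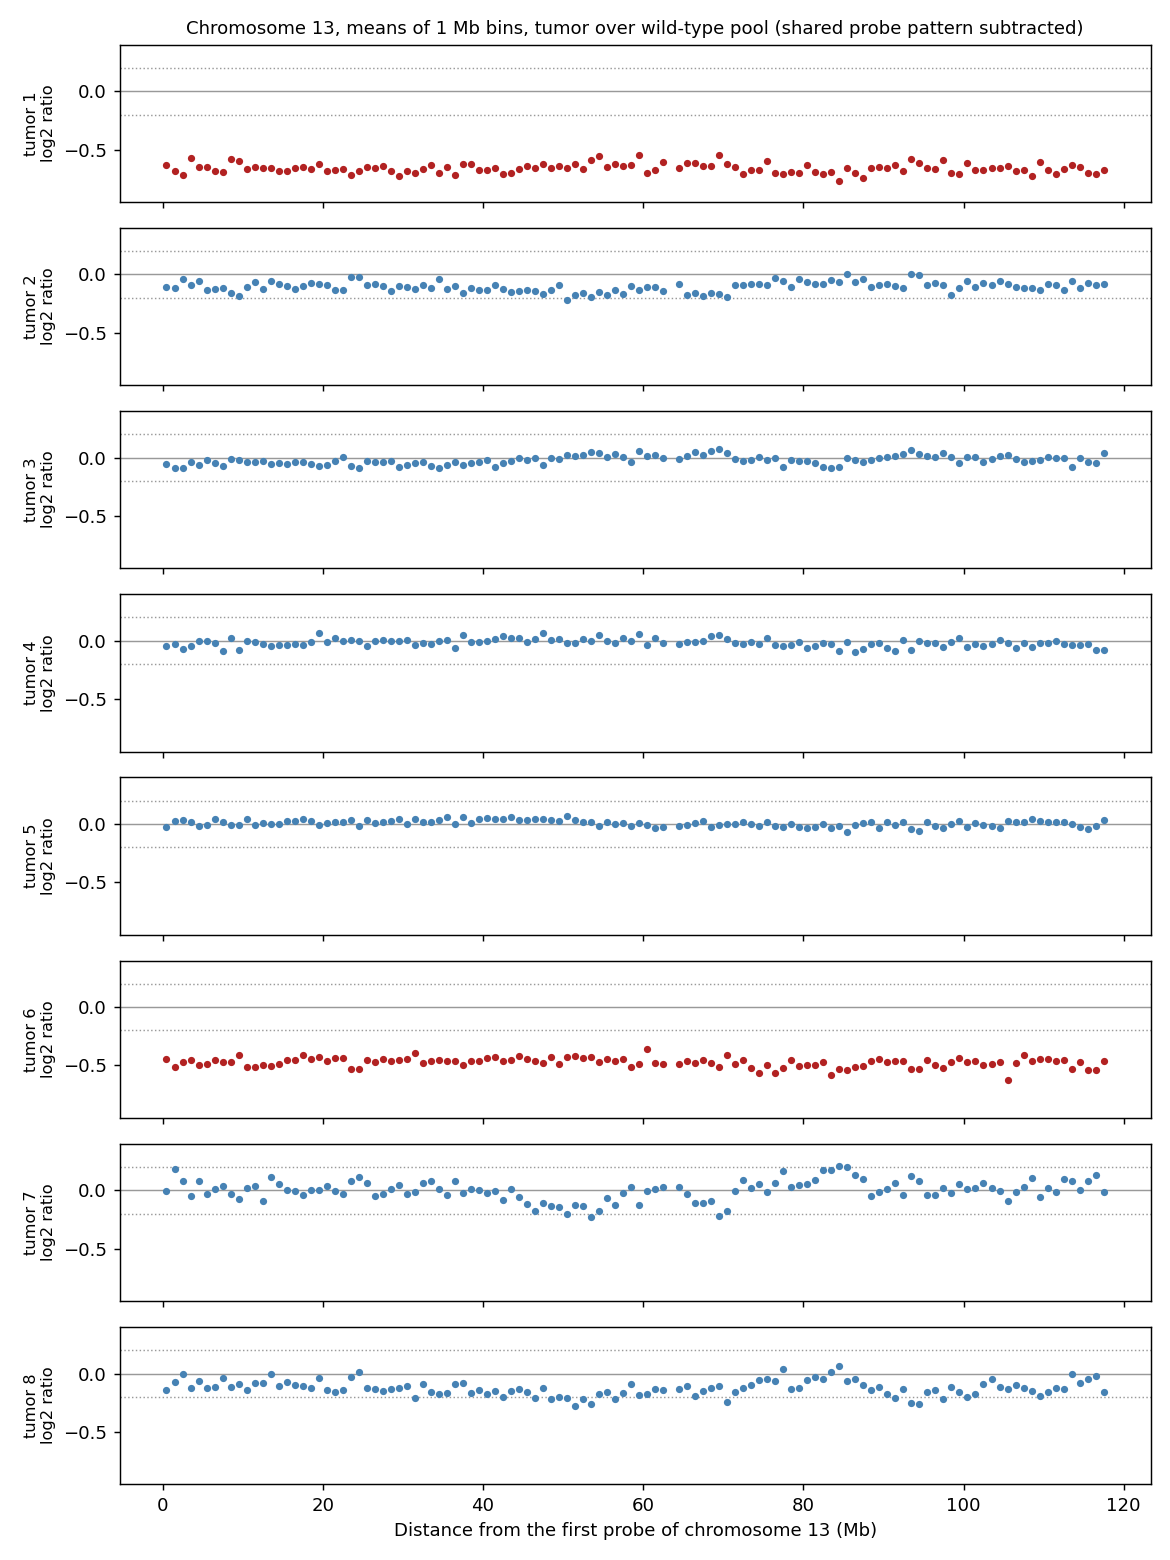
Means of 1 Mb bins along chromosome 13 in tumors 1 to 8, as log2 ratio of tumor over pool with the shared probe pattern subtracted, against the distance from the first probe in Mb. The dotted lines mark the call size of 0.2 in both directions, and the tumors with the whole chromosome lost are drawn in red. Tumor 1 stays between -0.77 and -0.55 and tumor 6 between -0.63 and -0.36 over all 117 bins, while tumors 7 and 8 waver more than tumors 2 to 5.

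The other 6 tumors carried short or shallow changes only. Tumor 5 had no called segment on chromosome 13, at 0.427% of its probes in losses and 16.1% in gains over the genome. In tumor 2 called losses held 0.646% of the chromosome 13 probes, against 1.7% over the genome, and a gain held 0.0791%, against 0.367%. Its share in losses was 36.6% at a call size of 0.1, and 0% with the pattern kept or with segments merged below a z of 6. In tumor 3 the shares were 0.184% in losses, against 29.7%, and 0.171% in gains, against 3.9%. In tumor 4 they were 0.329% in losses, against 8.1%, and 0.343% in gains, against 4.71%. The losses of tumor 2 lay at chr13:53118243-53398470 with 25 probes and a mean of -0.31, at chr13:54871359-55110639 with 18 probes and a mean of -0.32, and at chr13:96597802-96639658 with 6 probes and a mean of -0.23. In tumor 4 a loss at chr13:89096421-89213469 had 14 probes and a mean of -0.28. In each of these 4 tumors the called shares on chromosome 13 lay below those of the genome, a difference that was not tested.

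Tumor 8 had the broadest partial loss. Called losses held 9.87% of its chromosome 13 probes, against 14.6% over the genome, and no gain was called there, against 4.5%. Most of it was a stretch at chr13:48619385-56905104, 8286 kb long and covered by 575 probes, with a mean of -0.23. The segment before it lay at -0.15 over 1392 probes and the segment after it at -0.16 over 953 probes, so the stretch passed the call size of 0.2 by little and stood only slightly below its surroundings. Other losses of tumor 8 lay at chr13:8571443-9121585 with a mean of -0.24 and at chr13:96024643-97277803 with a mean of -0.29. The share in losses depends on the call size: it was 62.4% at 0.1 and 0.290% at 0.3, and with the pattern kept it was 1.13%.

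Tumor 7 had the most called stretches of the 8 tumors. Its losses held 4.22% of the chromosome 13 probes, against 9.31% over the genome, in 9 stretches, and its gains held 1.46%, against 0.525%, in 3 stretches. The share in losses was 0% with the pattern kept, 0.0659% when segments were merged below a z of 6, 1.90% at the array median, 10.5% at a call size of 0.1 and 0.461% at 0.3. The longest loss lay at chr13:55863230-58122383 with 176 probes and a mean of -0.22. The longest gain lay at chr13:96529303-97667480 with 84 probes and a mean of 0.23 ± 0.076 (SE over probes). Tumor 8 had a called loss over much of the same place, chr13:96024643-97277803, at -0.29 ± 0.039. Short segments of tumors 1, 2, 3 and 4, described with the focal changes, also lay in or beside it, so its probes scatter between tumors. Long segments of this tumor ranged from -0.22 to 0.18, the widest range of the 8 tumors. The largest step, of 0.20, lay at 74317757, with -0.15 before and 0.048 after it. The SD of its 1 Mb bins was 0.088 on chromosome 13, beside a median of 0.099 over its other autosomes, so chromosome 13 was no more uneven than the median autosome of this tumor. For tumor 8 these values were 0.065 and 0.068. Tumors 7 and 8 also carry the shared probe pattern less strongly than the rest, with a slope on it of 0.57 and 0.60, against 1.03 to 1.08 in tumors 1 to 6.

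The bins of tumors 2, 7 and 8 were high and low at like places along the chromosome. Over the 117 bins of 1 Mb, their pattern-subtracted values correlated with r = 0.69 for tumors 2 and 7, 0.61 for tumors 7 and 8 and 0.42 for tumors 2 and 8. Among the other tumors, r reached 0.49 for tumors 1 and 3 and 0.44 for tumors 5 and 6. Tumor 7 correlated negatively with tumors 1, 3, 4, 5 and 6, with r between -0.55 and -0.34. These correlations describe bins of the same arrays, which share the pool, the probes and the subtracted pattern, so they carry no p. Over the 576 probes of the stretch where tumor 8 had its broad loss, the mean minus the tumor's own chromosome 13 median was -0.17 in tumor 7, -0.096 in tumor 8 and -0.043 in tumor 2. In the other 5 tumors it lay between 0.022 and 0.040. With the pattern kept, relative to the chromosome mean, the same stretch lay at -0.18 in tumor 7, -0.11 in tumor 8 and -0.078 in tumor 2, below the -0.011 to -0.00043 of the other 5.

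A second stretch went the other way in these tumors. In tumor 7 the segment chr13:84187838-89751512 lay at 0.18 over 230 probes, and in tumor 8 the segment chr13:84577263-89367771 lay at -0.00064 over 183 probes, the highest long segment of each. Over 188 probes of this stretch, chosen after the values were seen, the mean minus the chromosome 13 median was 0.18 in tumor 7, 0.13 in tumor 8 and 0.055 in tumor 2, against -0.063 to -0.019 in the other 5 tumors. With the pattern kept, relative to the chromosome mean, all 8 tumors were high there, at 0.25 in tumor 7, 0.20 in tumor 8, 0.16 in tumor 2 and 0.061 to 0.088 in the other 5. The slope on the shared pattern was low in tumors 7 and 8 and not in tumor 2, where it was 1.03, and its part in these values was not tested.

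Focal changes were segments of under 3 Mb with at least 5 probes that lay at least 0.3 from the tumor's own chromosome 13 median. There were 17 in the 8 tumors, 10 below and 7 above the median. They held 0.140% of the chromosome 13 probes by tumor below the median, against 0.354% over the genome, and 0.112% above it, against 0.225%. The background includes chromosome 13. Tumor 7 had 5 of the 10 segments below, tumor 8 had 2, tumors 3, 4 and 6 had 1 each, and tumors 1, 2 and 5 had 0. The segments are numbered here as regions 1 to 17 along the chromosome.

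The clearest of them was a second, deeper loss inside the lost chromosome of tumor 6. Region 16, at chr13:108579209-108702580, spanned 123 kb with 12 probes and had a mean of -1.17 ± 0.043 (SE over probes). Its probes ran from -1.35 to -0.87 with a median of -1.19, against a median of -0.46 for the 67 probes within 600 kb on its sides. The segments on its sides lay at -0.48 on both. As a linear ratio the region came to 0.445 of the pool. It lay 0.71 below the chromosome 13 median of tumor 6, while the other 7 tumors lay between -0.05 and 0.14 from theirs, so tumor 6 stood outside the range of the rest. With the pattern kept it lay 0.78 below the median of tumor 6, but on that scale neither this nor any other of the 17 segments was called. The gaps to the next probes were 8.04 kb on the centromere side and 46.5 kb on the other, which limits how closely the breakpoints are known.

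The break in the loss of tumor 6 was the mirror of it. Region 6, at chr13:63424451-63625417, spanned 201 kb with 20 probes and lay at 0.048 ± 0.041 (SE over probes) in a chromosome otherwise called lost. Its probes ran from -0.20 to 0.45 with a median of 0.035, against -0.85 to -0.11 with a median of -0.47 for the 81 probes within 600 kb on its sides. The segments on its sides lay at -0.45 and -0.47. The linear ratio to the pool was 1.03, so the region was at the commonest autosomal level of its tumor. That ratio gives the net dose only, and how the region came to this level was not tested. Region 6 stood 0.51 above the chromosome 13 median of tumor 6, while the other 7 tumors lay between -0.08 and 0.03 from theirs. In tumor 1, the other tumor with the loss, the same probes lay at -0.69. The gaps to the next probes were 6.49 kb and 10.9 kb.

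**Figure D3:**
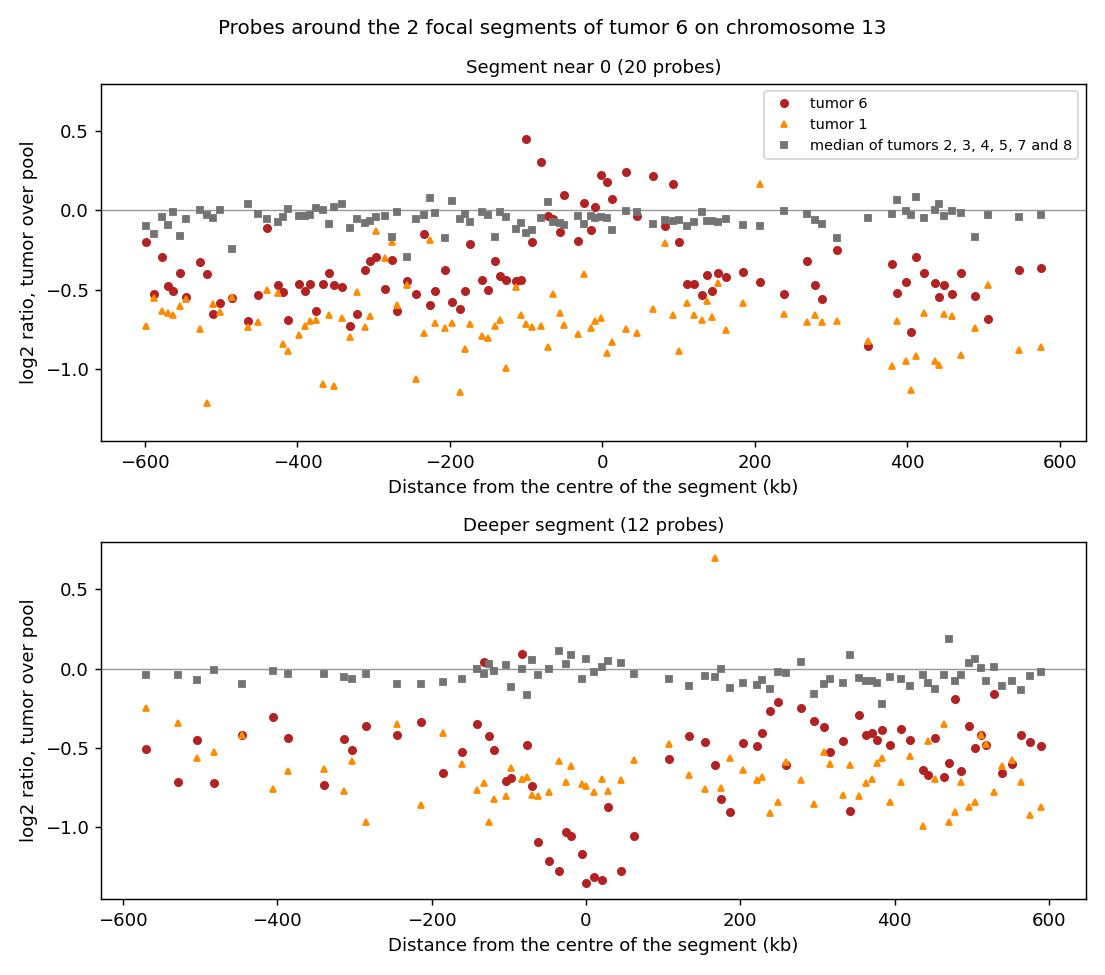
Probe values around the region at the commonest level (above) and around the deeper region (below) of tumor 6, as log2 ratio of tumor over pool with the shared pattern subtracted, against the distance from the centre of the region in kb. Red points are tumor 6, orange triangles tumor 1 and grey squares the median of tumors 2, 3, 4, 5, 7 and 8. The 20 probes of the upper region have a median of 0.035 in tumor 6 and the 12 probes of the lower region a median of -1.19, while both other sets of points keep their level across the regions.

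Region 17 in tumor 4, at chr13:109313264-109453011, spanned 140 kb with 11 probes and lay at -0.33 ± 0.037 (SE over probes). This is 0.31 below the chromosome 13 median of tumor 4, just past the distance of 0.3, and the other 7 tumors lay between -0.08 and 0.10 from theirs. Region 9 in tumor 7, at chr13:93919740-94126149, had 18 probes at 0.31 ± 0.059, which is 0.30 above the median, with the other 7 tumors between -0.06 and 0.07. Regions 9 and 17 are the segments just inside the distance of 0.3, and the one just outside lay 0.2996 above the median at chr13:107948664-108195314 in tumor 1.

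Tumor 7 also had regions 2 to 5, all below the median, and region 15, which is described further on. Region 2 at chr13:30794922-30840120 lay at -0.42 ± 0.14, region 3 at chr13:40696003-40835782 at -0.41 ± 0.13, region 4 at chr13:48763577-48812641 at -0.59 ± 0.096 and region 5 at chr13:51776647-51855790 at -0.51 ± 0.12 (SE over 6 to 9 probes). With the pattern kept, region 2 lay 0.029 above the median, so its direction turned, and regions 3, 4 and 5 lay at -0.30, -0.23 and -0.24 from it. Region 3 was also low in tumor 3, at -0.44 ± 0.42, with an error as large as the value. Region 4 was low in tumor 2 too, 0.30 below its median, but lay 0.34 above it with the pattern kept, so its direction there turned. Regions 2, 4 and 5 lay at -0.18, -0.20 and -0.23 from the median of tumor 8, and region 3 at 0.056. With the pattern kept, regions 2, 4 and 5 lay at 0.29, 0.18 and 0.048 from that median, so their direction turned as well. In tumor 8, region 7 at chr13:73920489-74023169 lay at -0.48 ± 0.072 over 10 probes and region 10 at chr13:94275679-94423615 at -0.47 ± 0.12 over 12 probes. Region 10 also lay at -0.47 in tumor 4, with an SE of 0.41, and at 0.26 in tumor 7, so its probes scatter between tumors.

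Region 1, at chr13:22184022-22264323, was called in tumor 3 at -0.57 ± 0.31 over 5 probes, and its lowest probe there was at -1.78. Over the same probes tumor 4 lay 0.27 below its chromosome 13 median and tumor 6 lay 0.41 above its own. Tumors 1, 2, 5, 7 and 8 lay between -0.0024 and 0.18 from theirs. The segments above the median other than regions 6 and 9 had 5 to 9 probes. Regions 8 and 12 in tumor 1 lay at -0.23 ± 0.23 and -0.29 ± 0.056 within the lost chromosome. Region 13 in tumor 2 lay at 0.29 ± 0.28, region 11 in tumor 3 at 0.31 ± 0.083 and region 14 in tumor 4 at 0.38 ± 0.24 (SE over 5 to 9 probes). Regions 11 to 14 lie in or beside the place where tumor 7 had its longest gain and tumor 8 a called loss.

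Region 15 varied from tumor to tumor in both directions. It was called in tumor 7, at chr13:101025017-101110842 with 5 probes, where it lay at -0.82 ± 0.13. Its 4 distal probes, at chr13:101053361-101110842, formed a segment with the same ends in tumors 1, 2, 5 and 6, below the minimum of 5 probes, and were singled out after the values were seen. These 4 probes averaged -1.15 ± 0.19 in tumor 1, -1.10 ± 0.32 in tumor 2, -0.16 ± 0.04 in tumor 3, 0.33 ± 0.07 in tumor 4, 0.32 ± 0.04 in tumor 5, -0.11 ± 0.06 in tumor 6, -0.87 ± 0.16 in tumor 7 and 0.16 ± 0.07 in tumor 8. Relative to each tumor's chromosome 13 median they lay from -0.98 to -0.47 in tumors 1, 2 and 7, at -0.14 in tumor 3, and from 0.29 to 0.35 in tumors 4, 5, 6 and 8. Of the tumors with the whole chromosome lost, tumor 1 was thus among the low ones and tumor 6 among the high ones. With the pattern kept, tumors 2 and 7 lay at -0.53 and -0.62 from the median and tumor 1 at -0.011, while tumors 3, 4, 5, 6 and 8 lay from 0.34 to 0.84.

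**Figure D4:**
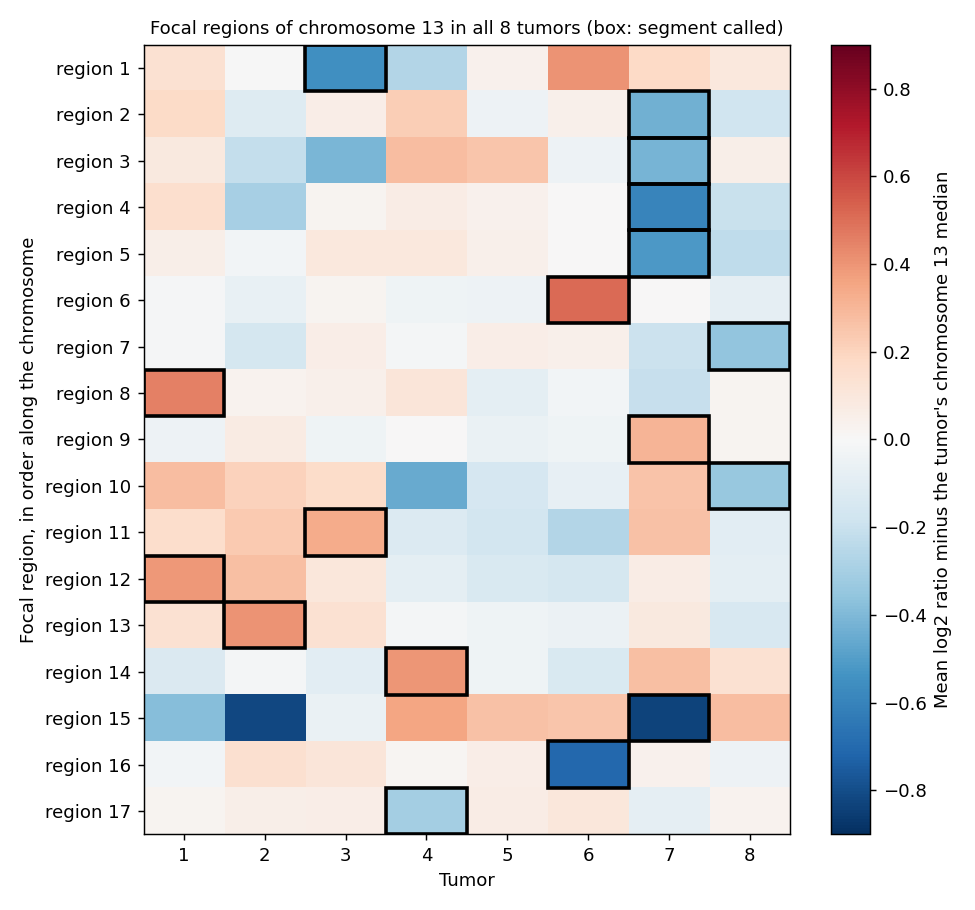
Mean log2 ratio minus the tumor's own chromosome 13 median, by colour, for the 17 focal regions of chromosome 13 (down the page, in order along the chromosome) in tumors 1 to 8 (across), with the shared pattern subtracted. A box marks the tumor in which the segment was called. Region 6 at 0.51 and region 16 at -0.71 stand out in tumor 6 alone, while region 15 is low in tumors 1, 2 and 7 and high in tumors 4, 5, 6 and 8.

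No 1 Mb bin of chromosome 13 passed the test over the 8 tumors as a group. With limma against a size of 0.1 on the log2 scale, 0 of 117 chromosome 13 bins were lower and 0 were higher at an adjusted p under 0.05, against 0.0788% lower and 0.0394% higher of the 2538 bins of the genome. At an unadjusted p under 0.05, 29 chromosome 13 bins (24.8%) were lower and 0 were higher, against 9.34% lower and 3.74% higher of all bins. Bins of 1 lost chromosome move together. Without tumors 1 and 6, chosen after the values were seen, 9 bins (7.69%) were lower, against 5.32% of all bins. In that setting 1 was higher, against 102 of the 2538 bins of the genome. With all 8 tumors and the pattern subtracted, 0 chromosome 13 bins were lower at that unadjusted p, against 4.10% of all bins. That setting cannot show a local change shared by most of the 8 tumors, since the subtraction removes it. The median over the bins was -0.18 on chromosome 13, beside -0.058 over all bins. The bin nearest to the threshold, chr13:120000001-121000000 at the distal end, held 24 probes. With the pattern kept it lay at -0.92, -0.32, -0.20, -0.31, -0.20, -0.69, -0.13 and -0.31 in tumors 1 to 8, below 0 in all 8, with an adjusted p of 0.125 by limma. With the pattern subtracted it lay at -0.68, -0.078, 0.040, -0.079, 0.031, -0.46, -0.011 and -0.16, above 0 in tumors 3 and 5. On the pattern-subtracted scale, 102 of the 117 bins lay below -0.2 in 2 tumors, 13 bins in 3 tumors, 1 bin in 4 and 1 bin in 5. The bin with 5, chr13:53000001-54000000, was at -0.66 in tumor 1, -0.22 in tumor 2, -0.43 in tumor 6, -0.21 in tumor 7 and -0.21 in tumor 8.

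The genes carried by the chromosome were placed by chromosome and order with the RefSeq annotation of assembly GRCm38.p6, which is a later build than that of the probes. Gene positions on mm9 were not used here, so no gene was set against a segment or a focal region. By this annotation 829 protein-coding genes lie on chromosome 13, and the 71 genes of 3 lists, picked for being known on this chromosome, all lie there. Apart from short segments, these genes lie on a chromosome at -0.66 in tumor 1 and -0.47 in tumor 6.

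The growth and cancer list holds 33 genes. Among those that restrain growth are Ptch1, the inhibitory receptor for hedgehog ligands, Pik3r1, a regulatory subunit of PI3-kinase, Rasa1, which switches Ras off, Dapk1, a kinase that promotes cell death, and Klf6, a zinc finger transcription factor. Genes of DNA repair on the chromosome are Msh3 for mismatches, Xrcc4 for the joining of broken ends and Fancc for crosslinks. Genes that drive growth lie on it as well, such as Tert, the catalytic subunit of telomerase, Fgfr4, the main fibroblast growth factor receptor of hepatocytes, E2f3, a transcription factor of the cell cycle, Ccnb1, the cyclin of mitosis, and Il6st, the signalling subunit of the interleukin-6 receptor. Genes of opposite roles thus lay on the same lost chromosome in tumors 1 and 6.

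The liver metabolism list holds 24 genes. Fbp1 encodes the fructose bisphosphatase of gluconeogenesis in liver. Bhmt, Bhmt2, Dmgdh, Mtr and Mtrr act in methionine and choline metabolism, F12 encodes a clotting factor made by the liver, and Tpmt methylates thiopurine drugs. In the annotation's order the listed genes run from Akr1c6, a steroid dehydrogenase of liver and the one nearest to the centromere, to Nnt, a mitochondrial enzyme that makes NADPH and the one nearest to the distal end.

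The 14 large genes of the third list, among them Ryr2, a calcium channel, and Pde4d, a phosphodiesterase for cyclic AMP, were chosen because long genes can carry focal breaks. The chromosome also holds families of related genes, for which a probe may match several copies. These include 26 of the 27 annotated prolactin family genes, 54 clustered histone genes, 16 of 28 Serpinb genes, 10 of 23 cathepsin genes, 13 Rslcan zinc finger genes, 8 Akr1c genes and 4 Naip genes. Probe matches to several copies were not checked, since the probe letters were not used here.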

How the data were processed

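The arrays were read with Agilent Feature Extraction 10.7.3.1, per the submitters' processing notes, with 1 array per tumor and 0 dye swaps, so a dye bias at a probe does not cancel. Per the file headers, the processed signals are intensity values from which background was subtracted and whose dyes were normalized within the array. The deposited log ratios are log10 of tumor over pool, and the deposited series-wide table differs from them by at most 0.00498. Spot marks for outliers and for signal above background are of the kind other (0 or 1), per the file headers, and probe positions are on mm9. The members, lists and tests were chosen with earlier results of these data known, and by the rule for what is named, all 17 focal segments and the 20 called stretches of largest size are described, with genes taken from the lists.

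Log2 ratios of the processed signals were computed, 2 to 8 chromosome 13 spots per array with an outlier mark were left out, and spots of a probe were averaged. Each array was centred at the commonest level of its autosomal segments (density bandwidth 0.05). For the second scale, a shared pattern was removed: each probe's median ratio across arrays, relative to chromosome medians, fitted to each array by a slope. Segments came from recursive circular binary segmentation (values limited to 4 noise SD, 1% false splits per chromosome of independent random values, merging below a z of 4). It was tested on shuffled chromosome 13 values with changes put in. Neither keeps a likeness between neighbouring probes, so false splits may be more frequent in the arrays. Chromosome means were tested by exact sign-flips with Benjamini-Hochberg adjustment, and 1 Mb bins with limma 3.58.1 in R 4.3.3 (treat). Python 3.11.15, numpy 2.4.6, pandas 2.3.3, numba 0.67.0, scipy 1.17.1 and matplotlib 3.10.9 were used. Tumors are from separate mice, per the labels. Alternatives changed centring, pattern, background, spot and probe filters, thresholds, bins, slides and tumors. Normexp (offset 50) was run on median signals, since mean signals were not used here, and the genome of mm9 was not used.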

Additional observations from a re-analysis of the deposited data

Results flagged for a closer look

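For 28 sets of 8 values, 1 per tumor, the gap between the highest or lowest tumor and the next was compared with the whole range, and it exceeded the 95% limit of Dixon's test in 5. Chance passes about 1 in 20 such sets. Of the 18 regions looked at, 4 passed, and the tumor that stood apart was the one in which the region had been called, so the choice of the region favours this. In tumor 6, chr13:63424451-63625417 lay 0.51 above the chromosome 13 median, with the other tumors at -0.08 to 0.03. In tumor 6, chr13:108579209-108702580 lay at -0.71 from the median, with the others at -0.05 to 0.14. In tumor 7, chr13:93919740-94126149 lay 0.30 above the median, with the others at -0.06 to 0.07. In tumor 4, chr13:109313264-109453011 lay at -0.31 from the median, with the others at -0.08 to 0.10. Tumor 7 also stood apart by its share of chromosome 13 probes in gains, 1.46%, with 0% to 0.343% in the other 7 tumors. The longest of these gains, chr13:96529303-97667480 with 84 probes at 0.23 ± 0.076 (SE over probes), lay where tumor 8 had a called loss.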

How the results depend on the processing

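Of 294 alternative values, 260 kept their direction and their side of the threshold or stayed within the spread, 23 moved and 11 turned their direction. The zero point mattered most, though neither the density peak nor the array median need lie at the level of unchanged chromosomes, as given above. Centred at the density peak of autosomal probe values, tumors 1 to 8 lay at -0.17, 0.30, 0.44, 0.36, 0.44, 0.036, 0.15 and 0.039, so tumor 1 alone stayed below 0, and the mean over tumors was 0.20 (adjusted p = 0.0493, exact permutation test). At the array median tumor 6 lay at -0.22. Under the other 6 settings tumor 1 stayed between -0.67 and -0.60 and tumor 6 between -0.48 and -0.43. Adjusted p over all settings ran from 0.0493 to 0.666 for the mean and from 0.25 to 0.769 against the other autosomes. Leaving out each tumor in turn gave means of -0.21 to -0.12 and differences from the other autosomes of -0.18 to -0.085, lowest in size without tumor 1. Without tumors 1 and 6 that difference was -0.039. The distal minus proximal difference, close to 0, was 0.017 with the pattern kept, 0.0040 with the chromosome cut into 2 parts, 0.0086 on slide 1 and 0.0035 without tumors 1 and 6, and ran from -0.0066 to 0.0026 with each tumor left out. Shares of probes called moved with the call size: at 0.1 tumor 8 had 62.4% in losses, tumor 4 had 1.28% in gains and tumor 7 had 7.55% in gains, and at 0.3 tumor 7 had 0.237% in gains. Gains of tumor 7 were 2.77% with the pattern kept and 0.356% without dim probes. Focal segments numbered 17 below and 19 above the median at a distance of 0.2, 5 and 1 at 0.5, 0 and 2 with the pattern kept, and 4 and 4 when merged below a z of 6. The regions of tumor 6, and region 15 in tumor 7, were called in 5 of 6 such settings, all but the kept pattern, and the other 14 in 1 to 4. Chromosome 13 bins lower in limma numbered 5 (4.27%, against 3.19% of all bins) at a tested size of 0.05, 7 of 229 (3.06%, against 2.59%) with 500 kb bins, 2 (1.71%, against 1.73%) with slide as a random block and 0 in each other setting, so these shares lie near those of all bins. The cause of these changes was not tested. No paired analysis was possible because the tumors form 1 group against 1 pool. Slide as a block in the sign-flip test was not run, since with 4 tumors a slide the mean is the same. Noise of 0.38 to 0.64 before the pattern is subtracted limits what short segments can show.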
